A study of Mus musculus with 6 samples.

Results

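The MiT/TFE family is a set of 4 transcription factor genes, Mitf, Tfe3, Tfeb and Tfec. They were taken by gene symbol, through the GENCODE M21 annotation, from a table of 43629 Ensembl genes that holds RSEM expected counts (reads assigned to each gene by estimation). All 4 were in the table, and all 4 passed the filter on low counts, which 15432 genes passed. The RNA came from c-kit+ bone marrow cells, sorted after thawing, of C57BL/6 mice at the leukaemia end point, in 6 libraries. All carried the Cbfb-MYH11 knockin, a mouse form of the fusion gene of human inversion 16 leukaemia. In 3 libraries (replicates 3, 5 and 6) Gata2 was Gata2+/+, and in 3 (replicates 7, 9 and 11) it was Gata2+/f, where f is how the labels write the other allele. The labels name no Cre driver, inducing agent or age, and do not say how the knockin or the f allele was activated. Nothing in them states that the libraries are separate animals or pairs them, so p-values measure the spread between these libraries.

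MiT/TFE proteins bind DNA as homodimers or as heterodimers with each other, through a basic helix-loop-helix leucine zipper, at E-box letters such as CACGTG or the so-called M-box. Mitf is the member that mast cells, pigment cells and osteoclasts depend on. Mice that lack working Mitf have few and abnormal mast cells, and Kit signalling acts on Mitf protein while Mitf acts on the Kit gene. Tfe3 and Tfeb are made in most cells and are best known as switches of lysosome and autophagy genes, the CLEAR network. When nutrients are plentiful, the kinase complex mTORC1 at the lysosome phosphorylates them and they stay in the cytoplasm. Tfec is the most restricted member and is best known from macrophages.

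Total expected counts ranged from 53789568 to 67854631 per library, at which 3 counts were worth between 0.0424 and 0.0600 CPM. CPM are counts scaled to library size, here with TMM factors. Gata2 was between 737 and 887 CPM in the Gata2+/+ libraries and between 264 and 498 CPM in the Gata2+/f libraries. Kit, the receptor used for the sort, was between 826 and 1466 CPM and between 175 and 328 CPM. Of the 15432 genes, 0 (0%) passed the threshold of edgeR's quasi-likelihood test, an adjusted p under 0.05, while 3486 (22.6%) had an unadjusted p under 0.05. DESeq2 called 1809 (11.8%) of the 15336 genes to which it gave an adjusted p. No gene below is therefore said to have risen or fallen, and counts of list members are given at an unadjusted p under 0.05 beside the share of all genes: 11.5% were lower and 11.1% higher in Gata2+/f at that level.

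Mitf was the most abundant family member per length in Gata2+/+ leukaemia and much lower in Gata2+/f. Its level was 108, 120 and 126 CPM in Gata2+/+ replicates 3, 5 and 6. In Gata2+/f replicates 7, 9 and 11 it was 2.45, 23.6 and 39.6 CPM. The Gata2+/+ libraries lay close together, each Gata2+/f library lay below all of them, and Gata2+/f replicate 7 lay far below the other 2. Relative to the Gata2+/+ mean, Mitf was 48.2-fold lower in Gata2+/f replicate 7, 4.98-fold lower in replicate 9 and 2.98-fold lower in replicate 11. The group means were 118 ± 9.02 and 21.9 ± 18.6 CPM (SD, n = 3 each), a log2 fold change of −2.43 (SE 0.81, 95% interval −4.31 to −0.55). The adjusted p of edgeR's quasi-likelihood test was 0.158, and that of DESeq2's Wald test was 0.0263. Without Gata2+/f replicate 7 the log2 fold change was −1.85, and without Gata2+/f replicate 11 it was −3.14. An exact two-sided permutation test of mean log2 CPM gave p = 0.1, the smallest that 3 against 3 allow. In bulk RNA, fewer cells that make Mitf and less Mitf RNA per cell cannot be told apart.

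**Figure D1:**
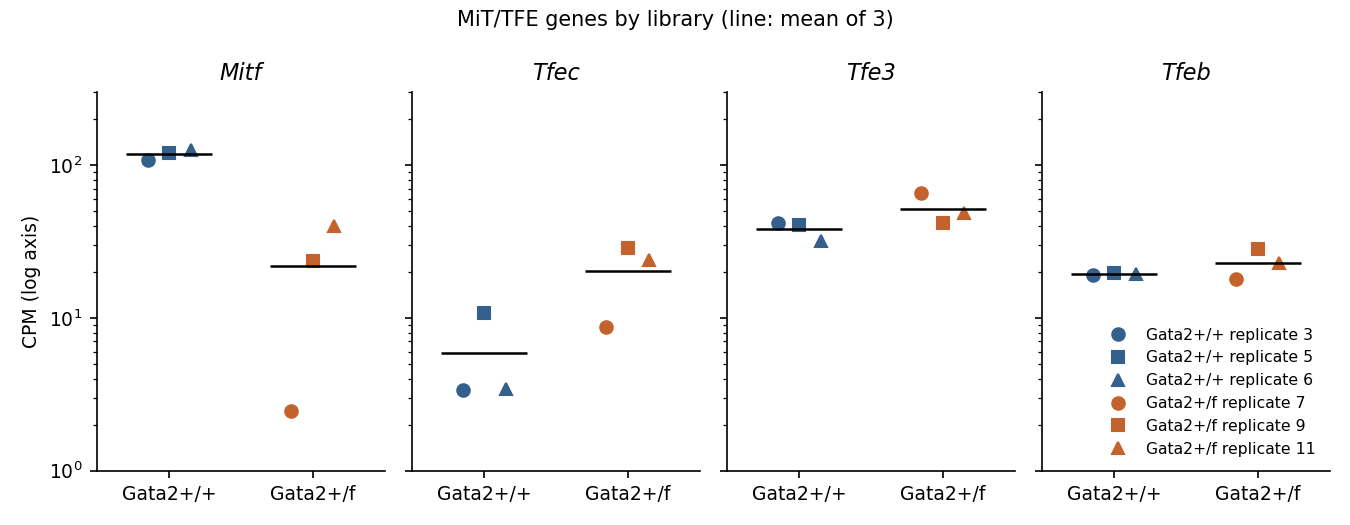
Level of Mitf, Tfec, Tfe3 and Tfeb in each of the 6 libraries, in CPM on a log axis, with the mean of each group of 3 as a line. Mitf is below all Gata2+/+ libraries in each Gata2+/f library and lowest in replicate 7 (2.45 CPM), while Tfec lies at 23.7 CPM or more in Gata2+/f replicates 9 and 11.

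The Mitf gene lies on chromosome 6 of GRCm38, from 97807052 to 98021349 on the forward strand. It is on the same chromosome as Gata2, with a gap of 9.6 Mb between the genes. Of the 41 genes tested in that gap, 2 were lower and 9 higher at an unadjusted p under 0.05, against 11.5% and 11.1% of all genes. The median log2 fold change of the 41 was 0.25, against 0.02 over all genes, and 1 of them had a lower log2 fold change than Mitf. The median over 424 well-expressed genes of chromosome 6, relative to each gene's median over the libraries, was 0.04, 0.21 and −0.11 (log2) in Gata2+/f replicates 7, 9 and 11. The opposite strand of the Mitf locus holds 1 annotated gene, the processed pseudogene Gm15531, and the strand setting of the counting is not given in the sources used here.

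Mitf has several promoters, each with its own leading exon, and the count per gene does not tell which one was used. The RefSeq table used (GRCm38.p6) holds 3 starts. The bases before them are shown because GATA factors bind letters such as AGATAA (with a closing G, this is AGATAG) and TGATAA (with a closing G, this is TGATAG), and because the groups differ in Gata2 genotype. Only the 250 bases before each start were searched, on both strands. GENCODE M21 also holds a protein-coding Mitf transcript that starts at 97940918, and the bases before that start were not searched. Capitals mark these GATA letters and the letters TGACGTCA, which CREB proteins bind. The windows on the forward strand are chr6:97806808-97807057, chr6:97929567-97929816 and chr6:97991533-97991782.
Mitf, upstream start: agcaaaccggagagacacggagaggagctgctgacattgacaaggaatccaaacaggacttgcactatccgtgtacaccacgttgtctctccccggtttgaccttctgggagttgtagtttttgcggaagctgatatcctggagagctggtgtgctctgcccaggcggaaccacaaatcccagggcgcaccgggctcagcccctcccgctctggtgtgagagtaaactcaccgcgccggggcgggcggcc
Mitf, middle start: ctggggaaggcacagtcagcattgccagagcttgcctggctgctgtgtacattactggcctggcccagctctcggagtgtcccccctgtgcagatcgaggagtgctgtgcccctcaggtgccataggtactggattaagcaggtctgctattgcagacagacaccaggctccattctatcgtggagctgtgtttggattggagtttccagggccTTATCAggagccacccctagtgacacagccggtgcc
Mitf, downstream start: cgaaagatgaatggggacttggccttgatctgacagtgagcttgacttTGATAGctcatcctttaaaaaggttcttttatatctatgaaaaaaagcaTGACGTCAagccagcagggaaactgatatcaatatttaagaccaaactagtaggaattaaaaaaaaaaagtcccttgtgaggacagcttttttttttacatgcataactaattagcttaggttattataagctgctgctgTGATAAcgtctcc
The upstream window held 0 of these letters. The middle window held 1 GATA match, on the reverse strand, 36 bases before the start. The downstream window, from which the pigment cell form is known to start, held 2 GATA matches, 202 and 13 bases before the start, and TGACGTCA at 153 bases. Of all 32851 promoter windows of this length, 26.5% held a GATA match and 1.55% held TGACGTCA. Of the 9 windows of the 4 family genes, 4 held a GATA match (44.4%), the fourth being 1 of the windows of Tfe3. The E-box CACGTG and the M-box letters TCATGTG were in 0 of the 9, against 6.02% and 3.25% of all windows.

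Tfec had the opposite direction to Mitf. Its level was 3.38, 10.8 and 3.44 CPM in Gata2+/+ replicates 3, 5 and 6. In Gata2+/f replicates 7, 9 and 11 it was 8.64, 28.8 and 23.7 CPM. Gata2+/f replicates 9 and 11 lay above all other libraries, while Gata2+/f replicate 7 lay below Gata2+/+ replicate 5, so the groups overlapped. The means were 5.86 ± 4.24 and 20.4 ± 10.5 CPM (n = 3 each), a log2 fold change of 1.798 (SE 0.63, 95% interval 0.33 to 3.27). The adjusted p was 0.171 in edgeR's quasi-likelihood test and 0.0410 in DESeq2's Wald test, and the exact permutation p was 0.2. Leaving out 1 library moved the log2 fold change between 1.51, without Gata2+/f replicate 9, and 2.57, without Gata2+/+ replicate 5. The summed level of 13 monocyte and macrophage markers was also highest in Gata2+/+ replicate 5 among the Gata2+/+ libraries: 270, 752 and 328 CPM in Gata2+/+ and 861, 1106 and 2160 CPM in Gata2+/f. At an unadjusted p under 0.05, 8 of its 12 tested genes were higher and 0 were lower, and Marco, a scavenger receptor of resident macrophages, had 0 or 1 count in each library. The part of such cells in the Tfec difference was not tested.

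Tfec lies on the reverse strand of chromosome 6, from 16833373 to 16898441, far from Mitf and Gata2. Its 1 RefSeq window (chr6:16898442-16898691, reverse strand) is shown for comparison with Mitf, since their log2 fold changes have opposite signs. It held 1 GATA match, 81 bases before the start, in capitals.
Tfec: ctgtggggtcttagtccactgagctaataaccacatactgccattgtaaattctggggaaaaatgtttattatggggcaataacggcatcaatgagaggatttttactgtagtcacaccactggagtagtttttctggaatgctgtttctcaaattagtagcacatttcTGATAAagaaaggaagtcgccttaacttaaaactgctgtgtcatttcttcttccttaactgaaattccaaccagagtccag
As with Mitf, a match of letters common to 26.5% of windows is a description of the sequence.

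Tfe3 and Tfeb, the broadly made members, had smaller differences between the groups. Tfe3 stood at 41.6, 40.2 and 31.9 CPM in Gata2+/+ replicates 3, 5 and 6, against 65.2, 41.8 and 48.2 CPM in Gata2+/f replicates 7, 9 and 11. The groups just failed to overlap, since Gata2+/f replicate 9 (41.8 CPM) lay barely above Gata2+/+ replicate 3. The difference, as a log2 fold change, was 0.45 (SE 0.25, 95% interval −0.14 to 1.03, edgeR adjusted p = 0.320, DESeq2 adjusted p = 0.330, exact permutation p = 0.1). Its highest level was in Gata2+/f replicate 7, the library with the lowest Mitf. Tfe3 lies on chromosome X (7762560 to 7775202, forward strand), and the libraries differ in sex-linked reads: the Y-linked gene Ddx3y, looked at after the values were seen, had 0 counts in Gata2+/+ replicates 5 and 6 and Gata2+/f replicate 11 and 1639 or more in the other 3, so each group held libraries of both kinds. With Ddx3y at 0, Tfe3 was 40.2, 31.9 and 48.2 CPM. In the other 3 libraries it was 41.6, 65.2 and 41.8 CPM. The part of these differences in the Tfe3 difference was not tested.

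Tfeb, on chromosome 17 (47737030 to 47792419, forward strand), was the steadiest of the 4. It stood at 18.9, 19.6 and 19.2 CPM in Gata2+/+ replicates 3, 5 and 6, against 17.8, 28.2 and 22.9 CPM in Gata2+/f replicates 7, 9 and 11. Gata2+/f replicate 7 lay below and the other Gata2+/f libraries above the Gata2+/+ libraries. As a log2 fold change this was 0.25 (SE 0.27, 95% interval −0.37 to 0.87, edgeR adjusted p = 0.593, DESeq2 adjusted p = 0.585, exact permutation p = 0.4). The intervals of Tfe3 and Tfeb leave room for a difference of up to 1.03 and 0.87 on the log2 scale. In the family as a whole 1 of 4 genes was lower and 1 higher at an unadjusted p under 0.05, against 11.5% and 11.1% of all genes.

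Because the genes differ in length, their levels were compared per kilobase (kb) of merged exons. In Gata2+/+ the order was Mitf (19.0 ± 1.46 CPM per kb), Tfe3 (4.09 ± 0.568), Tfeb (3.40 ± 0.0630) and Tfec (1.05 ± 0.758). Tfe3 and Tfeb nearly met there, at 3.44 and 3.40 CPM per kb in Gata2+/+ replicate 6, whereas Mitf stood far above both, and Tfec below both, in each library. In Gata2+/f the means were 5.58 ± 1.31 for Tfe3, 4.05 ± 0.915 for Tfeb, 3.64 ± 1.87 for Tfec and 3.53 ± 3.01 for Mitf, and no neighbours in that order differed beyond their spread. The order differed between Gata2+/f libraries. Tfe3 led in replicate 7 (7.04 CPM per kb, with Mitf at 0.395), Tfec in replicate 9 (5.14) and Mitf in replicate 11 (6.39).

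Mitf made up 67.4%, 66.6% and 73.1% of the family's summed level per length in Gata2+/+ replicates 3, 5 and 6. In Gata2+/f replicates 7, 9 and 11 it made up 3.26%, 20.7% and 32.2%. The summed level of all 4 genes was 27.6 ± 1.64 CPM per kb in Gata2+/+ and 16.8 ± 4.12 in Gata2+/f. Without Mitf, the summed level of the other 3 genes was 8.43, 9.73 and 7.45 CPM per kb in Gata2+/+ and 11.7, 14.6 and 13.5 in Gata2+/f. The 2 sums thus lay in opposite order, and neither overlapped between the groups. With the length of the longest transcript in place of merged exons, the Mitf share was 60.2% in Gata2+/+ and 14.2% in Gata2+/f, and Tfeb stood above Tfe3 in both groups. Tfeb then also led in Gata2+/f replicates 9 (12.04 CPM per kb, with Tfec at 8.50) and 11 (9.76, with Mitf at 8.11), so the order within Gata2+/f depends on the length used.

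**Figure D2:**
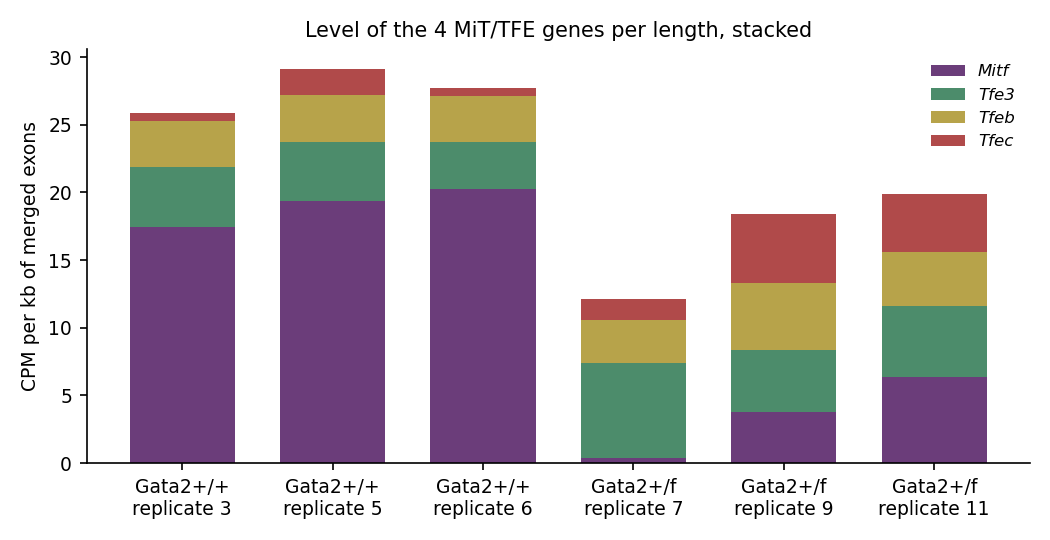
Stacked level of the 4 family genes in each library, in CPM per kb of merged exons. Mitf fills 66.6% or more of each Gata2+/+ bar and 32.2% or less of each Gata2+/f bar.

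The genes whose pattern over the 6 libraries was most like that of each member were found by the root mean square difference of log2 CPM, each gene relative to its own mean, among 9164 well-expressed genes. For Mitf they were Rab37 (0.29), Zfp831 (0.44), Gsg1l (0.49) and Csf2rb (0.51), against a median of 2.04 over all genes compared. Rab37, a small GTPase of secretory vesicles, had 264, 231 and 182 CPM in Gata2+/+ and 5.69, 43.5 and 103 CPM in Gata2+/f. Like Mitf it was lowest in replicate 7 and highest of the Gata2+/f libraries in replicate 11. Csf2rb, the beta chain shared by several cytokine receptors, had 1813, 1885 and 1267 CPM in Gata2+/+ and 76.6, 500.3 and 924 CPM in Gata2+/f. For Tfec the nearest genes were AB124611 (0.15), Card9 (0.16), Emilin1 (0.17) and Ltbr (0.17), with a median of 1.31 over all. Card9, an adaptor of innate immune receptors, had 6.12, 22.7 and 8.56 CPM in Gata2+/+ and 21.4, 65.7 and 49.5 CPM in Gata2+/f. Tfe3 was most like the cohesin gene Smc1a (0.09), Vps50 (0.10), Naa35 (0.10) and Slc43a1 (0.10), and Tfeb most like Fam89b (0.05), the proteasome activator gene Psme2 (0.06), Zfp513 (0.06) and Ost4 (0.07). The medians over all genes were 0.48 for Tfe3 and 0.47 for Tfeb.

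Genes that Mitf has been linked to in mast cells were low in Gata2+/f. Of a list of 12, 11 were tested, all 11 had a negative log2 fold change with a median of −2.34 (0.02 over all genes tested), and 7 were lower and 0 higher at an unadjusted p under 0.05, against 11.5% and 11.1% of all genes. DESeq2 called 6 lower, against 5.71% of all genes. Without Tpsb2 and Mcpt4, which were near 0 counts in Gata2+/f, the median of the other 9 was −1.79. The groups did not overlap for 8, all lower, against 16.6% of all genes. Ngfr, the remaining gene, had too few counts to test.

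The 2 genes of this list with the highest Gata2+/+ means differed widely between the Gata2+/f libraries. Cma1, the chymase of connective tissue mast cells, had 3188, 2146 and 2996 CPM in Gata2+/+, against 1.61, 97.9 and 98.8 CPM for Gata2+/f (log2 fold change −5.39, SE 1.28, edgeR adjusted p = 0.102). Tph1, which makes serotonin in mast cells, had 3359, 2105 and 2731 CPM in Gata2+/+, against 0.863, 372 and 45.8 CPM for Gata2+/f (−4.29, SE 1.60, edgeR adjusted p = 0.185). Gata2+/f replicate 7 had the least of each by far, and Tph1 was higher in replicate 9 than in replicate 11. Without Gata2+/f replicate 9 the log2 fold change of Tph1 was −6.81, and without Gata2+/f replicate 7 it was −3.67 for Tph1 and −4.77 for Cma1.

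Kit, Ndst2 and Hdc differed less between the Gata2+/f libraries, and Kit is also the marker of the sort. Kit had 826, 1222 and 1466 CPM in Gata2+/+, against 193, 175 and 328 CPM for Gata2+/f (−2.34, SE 0.36, edgeR adjusted p = 0.0955). Ndst2, which sulphates the heparin of mast cell granules, had 832, 1013 and 1270 CPM against 332, 309 and 440.0 CPM (−1.53, SE 0.28, edgeR adjusted p = 0.0955). Hdc, the histamine-forming enzyme, had 795, 514 and 1045 CPM against 291, 141 and 249 CPM (−1.79, SE 0.38, edgeR adjusted p = 0.0966). For these 3 genes Gata2+/f replicate 7 did not stand apart. The part of Mitf in the differences of this list was not tested.

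The tryptase Tpsb2 had 16, 892 and 161 counts in Gata2+/+ and 0, 0 and 1 in Gata2+/f, and the chymase Mcpt4 had 1620, 2140 and 56 counts against 1, 1 and 11. Both belong to multigene families whose shared reads the counting may split. The other tested genes did not reach an unadjusted p of 0.05. Cadm1, an adhesion molecule of mast cells, had 238, 260 and 147 CPM against 56.1, 1.45 and 144 CPM, with Gata2+/f replicate 11 just below the Gata2+/+ libraries. The integrin chain Itga4 had a log2 fold change of −0.65 and the protease Gzmb one of −2.75, each with overlapping groups. Gzmb ranged from 3.41 to 281 CPM within Gata2+/+ alone, and its log2 fold change lay between −3.81, without Gata2+/f replicate 9, and −1.59, without Gata2+/+ replicate 5.

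**Figure D3:**
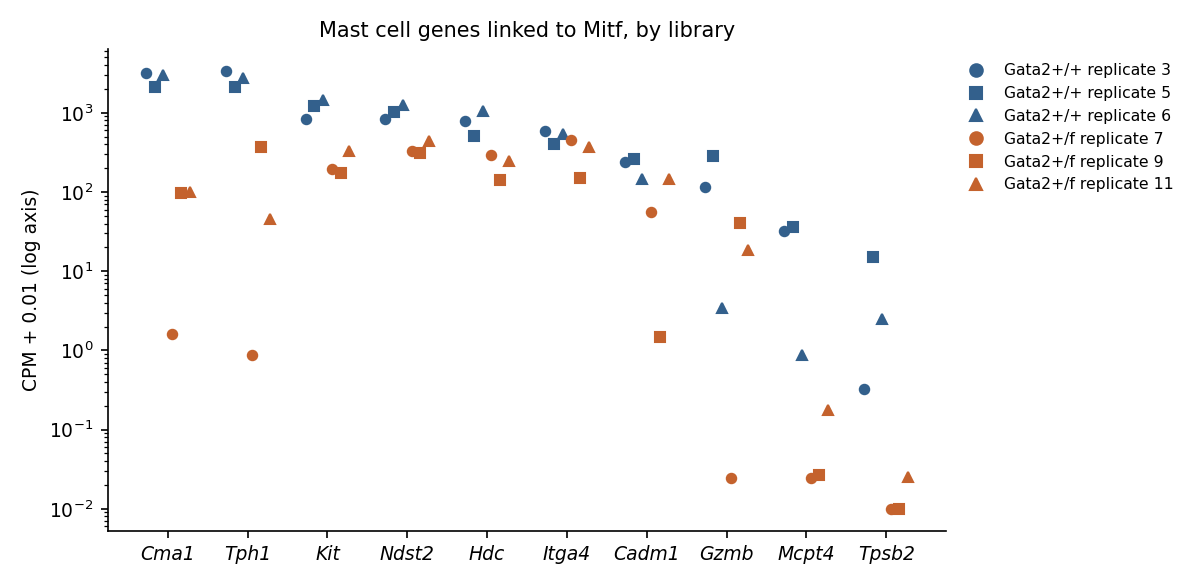
Level of 10 of the 11 tested mast cell genes linked to Mitf in each library, in CPM plus 0.01 on a log axis, ordered by the Gata2+/+ mean. Cma1 (1.61 CPM) and Tph1 (0.863 CPM) are lowest in Gata2+/f replicate 7 and stand at 45.8 CPM or more in Gata2+/f replicates 9 and 11, while Kit, Ndst2 and Hdc are at 141 CPM or more in each library.

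The summed level of 15 markers of mast cells and basophils, 5 of them also in the list above, was 13782, 13359 and 16059 CPM in Gata2+/+ and 2159, 1695 and 5749 CPM in Gata2+/f. Of 14 tested, 8 were lower and 1 higher at an unadjusted p under 0.05, against 11.5% and 11.1% of all genes. The lower ones include Gata2, whose genotype defines the groups, and Kit, the marker of the sort. The higher one, the basophil protease gene Prss34, named after its values were seen, had 0.640, 0.664 and 0.140 CPM against 0.877, 2.12 and 7.64 CPM. The receptor chains Fcer1a (log2 fold change −2.76) and Ms4a2 (−0.51), named likewise, did not reach that level. Late neutrophil markers were at 152 to 445 CPM in sum in Gata2+/+ and at 4026 to 8043 CPM in Gata2+/f, and 12 of 12 were higher at that level. The part of these cells in the Mitf difference was not tested. Pigment cell genes, which Mitf drives elsewhere, were at or near 0: of 13, 7 had 0 counts in all libraries (Tyrp1, Dct, Slc45a2, Oca2, Trpm1, Gpr143 and Pax3), and the list's sum was at most 8.87 CPM. B lineage markers summed to 24.3 CPM or less and T and NK cell markers to 3.78 CPM or less in every library. Red cell markers summed to 6196 to 10338 CPM in Gata2+/+ and 1115 to 6324 CPM in Gata2+/f. Megakaryocyte markers summed to 582 to 723 and 44.4 to 192 CPM. The single genes of both lists lay on either side, unlike the sums. Of 9 red cell markers tested, 4 had a positive and 5 a negative log2 fold change. Of 5 megakaryocyte markers tested, 3 were positive and 2 negative, and their median was 0.97. Each list had 1 higher and 1 lower gene at an unadjusted p under 0.05.

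Genes of the nutrient-sensing control of Tfe3, Tfeb and Mitf proteins lay lower more often than higher. The list mixes genes that restrain these proteins with genes that release them, so its counts give no direction for that control. Of 36 genes, all tested, 10 were lower and 1 higher at an unadjusted p under 0.05, against 11.5% and 11.1% of all genes, with a median log2 fold change of −0.23 against 0.02. DESeq2 called 1 lower and 1 higher, against 5.71% and 6.08% of all genes. The groups did not overlap for 12 lower and 3 higher genes, against 16.6% and 13.1% of all genes. The lower count moved with single libraries: it was 2 without Gata2+/+ replicate 3, 5 without Gata2+/f replicate 9, and 6 without Gata2+/+ replicate 6 or without Gata2+/f replicate 7. The count over all genes, in either direction, moved too, from 3486 of 15432 with all libraries. It was 2146 of 16015 without Gata2+/+ replicate 3 and 2309 of 15932 without Gata2+/+ replicate 6. Without Gata2+/f replicate 7 it was 3061 of 15944, and without Gata2+/f replicate 9 it was 3111 of 15828.

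The folliculin complex and its target were among them. Folliculin (Flcn) together with Fnip1 or Fnip2 acts on the GTPases Rragc and Rragd, which hand the TFE factors to mTORC1. Flcn had 110, 104 and 119 CPM in Gata2+/+, against 43.1, 50.8 and 67.5 CPM for Gata2+/f (log2 fold change −1.05, SE 0.23, edgeR adjusted p = 0.0966, DESeq2 adjusted p = 0.0108). It was the 1 gene of the list that DESeq2 called lower. Fnip2 had 110, 67.2 and 75.6 CPM against 30.1, 18.9 and 57.2 CPM (−1.25, SE 0.42, edgeR adjusted p = 0.160). Fnip1, named after its values were seen, had 252, 79.2 and 100.3 CPM against 35.9, 18.3 and 76.8 CPM (−1.72, SE 0.62, edgeR adjusted p = 0.174). All 3 had their Gata2+/f maximum in replicate 11, and Fnip1 and Fnip2 had their highest level of all in Gata2+/+ replicate 3. The log2 fold change of Fnip1 was −0.99 without that library and −2.36 without Gata2+/f replicate 11.

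Rragc had 111, 92.0 and 114 CPM in Gata2+/+, against 76.3, 60.6 and 70.7 CPM for Gata2+/f (−0.61, SE 0.20, edgeR adjusted p = 0.158). Its paralog Rragd was near the limit of detection, with 10, 34 and 27 counts against 3, 4 and 11. Mcoln1, the lysosomal calcium channel that feeds back on Tfeb through calcineurin, had 45.8, 42.7 and 37.7 CPM against 28.6, 26.3 and 28.2 CPM (−0.60, SE 0.21, edgeR adjusted p = 0.169). The 1 higher gene was Mlst8, a subunit of the mTOR complexes, at 25.3, 24.1 and 20.9 CPM against 51.2, 39.0 and 35.5 CPM (0.84, SE 0.24, edgeR adjusted p = 0.134, DESeq2 adjusted p = 0.0217). The kinase itself, Mtor, and its partner Rptor, chosen after their values were seen, had log2 fold changes of −0.24 and 0.07 with overlapping groups. The 5 Lamtor genes, which anchor the Rag GTPases to the lysosome and were also chosen afterwards, lay between −0.20 and −0.01.

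**Figure D4:**
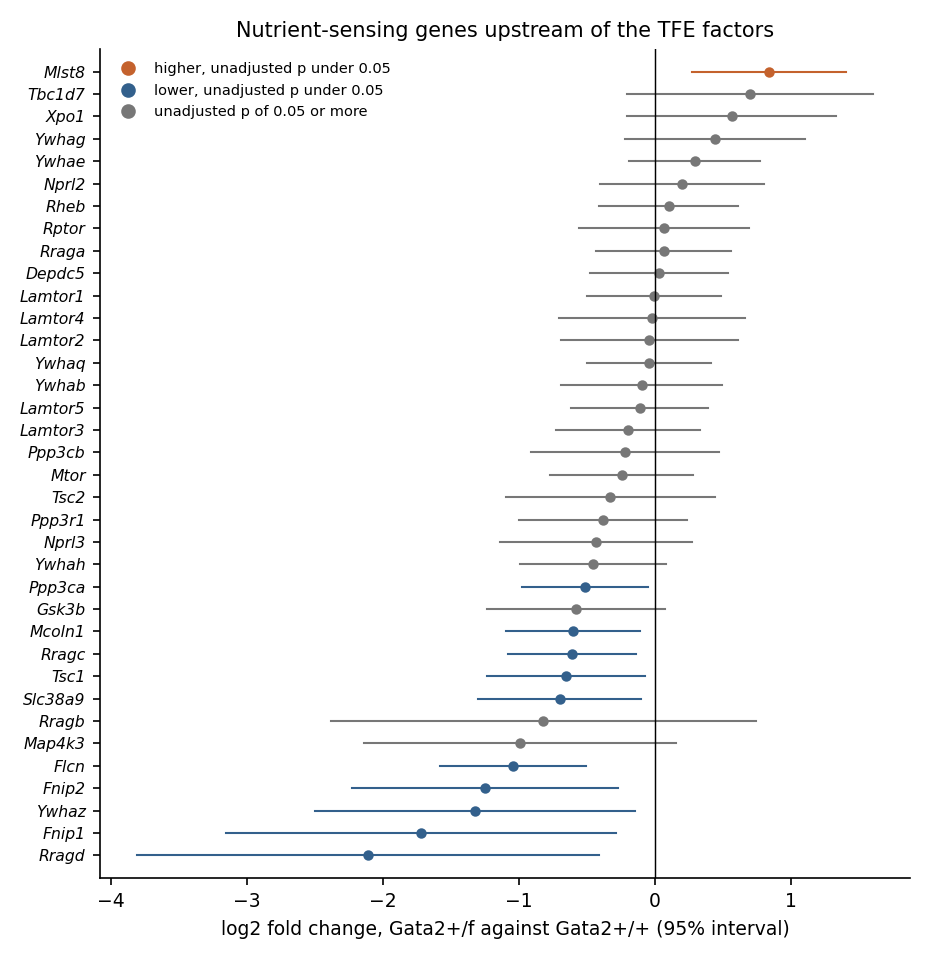
Log2 fold change, Gata2+/f against Gata2+/+, with its 95% interval for the 36 nutrient-sensing genes, coloured by direction where the unadjusted p was under 0.05. The 10 lower genes include Flcn (−1.05), Fnip1 (−1.72) and Fnip2 (−1.25), and Mlst8 (0.84) is the 1 higher gene.

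Among 16 genes of proteins that act on or with Mitf protein, 13 were tested. At an unadjusted p under 0.05, 3 were lower and 0 higher, against 11.5% and 11.1% of all genes. The groups of those 3 did not overlap, as was so, in the lower direction, for 16.6% of all genes. Without Gata2+/f replicate 7 the higher count was 2, and without Gata2+/+ replicate 3 the lower count was 2. Crebbp, a histone acetyltransferase that serves Mitf as a coactivator, had 118, 101 and 103 CPM in Gata2+/+, against 51.9, 39.8 and 60.2 CPM for Gata2+/f (log2 fold change −1.08, SE 0.23, edgeR adjusted p = 0.0966, DESeq2 adjusted p = 0.00582). Its relative Ep300 had 308, 198 and 264 CPM against 114, 69.2 and 168 CPM (−1.13, SE 0.35, edgeR adjusted p = 0.148). Pias3, which inhibits Mitf by binding it, had 38.9, 42.4 and 41.1 CPM against 22.5, 19.3 and 28.1 CPM (−0.81, SE 0.24, edgeR adjusted p = 0.136). An inhibitor and the coactivators were thus lower side by side. Hint1, another inhibitor (0.32), the kinase Mapk3 (0.31) and Spi1, a partner of Mitf in osteoclasts (0.46), had overlapping groups. Lef1, Usp13 and Yap1 had too few counts to test.

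The lysosome and autophagy genes of the CLEAR network did not share 1 direction. Of 59 genes, all tested, 15 were lower and 4 higher at an unadjusted p under 0.05, against 11.5% and 11.1% of all genes. The median log2 fold change was −0.14, against 0.02 over all genes. DESeq2 called 6 lower and 4 higher, against 5.71% and 6.08% of all genes. The groups did not overlap for 19 lower and 6 higher genes, against 16.6% and 13.1%. The lower count was 7 without Gata2+/f replicate 7, 8 without Gata2+/+ replicate 3 or 6, and 9 without Gata2+/+ replicate 5 or Gata2+/f replicate 9. Over all genes, in either direction, the count was 3486 of 15432 with all libraries. Without Gata2+/+ replicates 3, 5 and 6 in turn it was 2146 of 16015, 3373 of 15910 and 2309 of 15932. Without Gata2+/f replicates 7 and 9 in turn it was 3061 of 15944 and 3111 of 15828. Flcn, Fnip2, Mcoln1 and Rragd belong to this list too.

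Enzymes of heparan and keratan sulphate breakdown lay on either side. Sgsh, the sulphatase of heparan sulphate, had 20.6, 46.0 and 42.6 CPM in Gata2+/+, against 8.23, 6.82 and 11.7 CPM for Gata2+/f (log2 fold change −2.03, SE 0.39, edgeR adjusted p = 0.0966). Galns, a galactosamine sulphatase, went the other way, at 10.1, 14.3 and 11.2 CPM against 20.3, 35.8 and 32.0 CPM (1.31, SE 0.31, edgeR adjusted p = 0.104). DESeq2 called both, in these directions.

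Cd63, a membrane protein of lysosomes and mast cell granules, had 739, 383 and 781 CPM in Gata2+/+, against 15.9, 78.0 and 113 CPM for Gata2+/f (−3.20, SE 0.69, edgeR adjusted p = 0.0966), with the order of Mitf within Gata2+/f. Sqstm1, an autophagy receptor, had 1852, 412 and 465 CPM against 144, 149 and 153 CPM (−2.61, SE 0.60, edgeR adjusted p = 0.0991). Gata2+/+ replicate 3 was far above the others, and without it the log2 fold change was −1.51. The proton pump that acidifies lysosomes gave 1 gene with a large difference, Atp6v0d2, a subunit of osteoclasts and macrophages, at 2.14, 6.21 and 7.74 CPM against 0.0424, 0.468 and 0.538 CPM (−3.94, SE 0.95, edgeR adjusted p = 0.106). The median over its 14 listed pump genes, a subset chosen after values were seen, was −0.10, against 0.02 over all genes. Of these 14, 2 were at an unadjusted p under 0.05, against 22.6% of all genes in either direction.

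**Figure D5:**
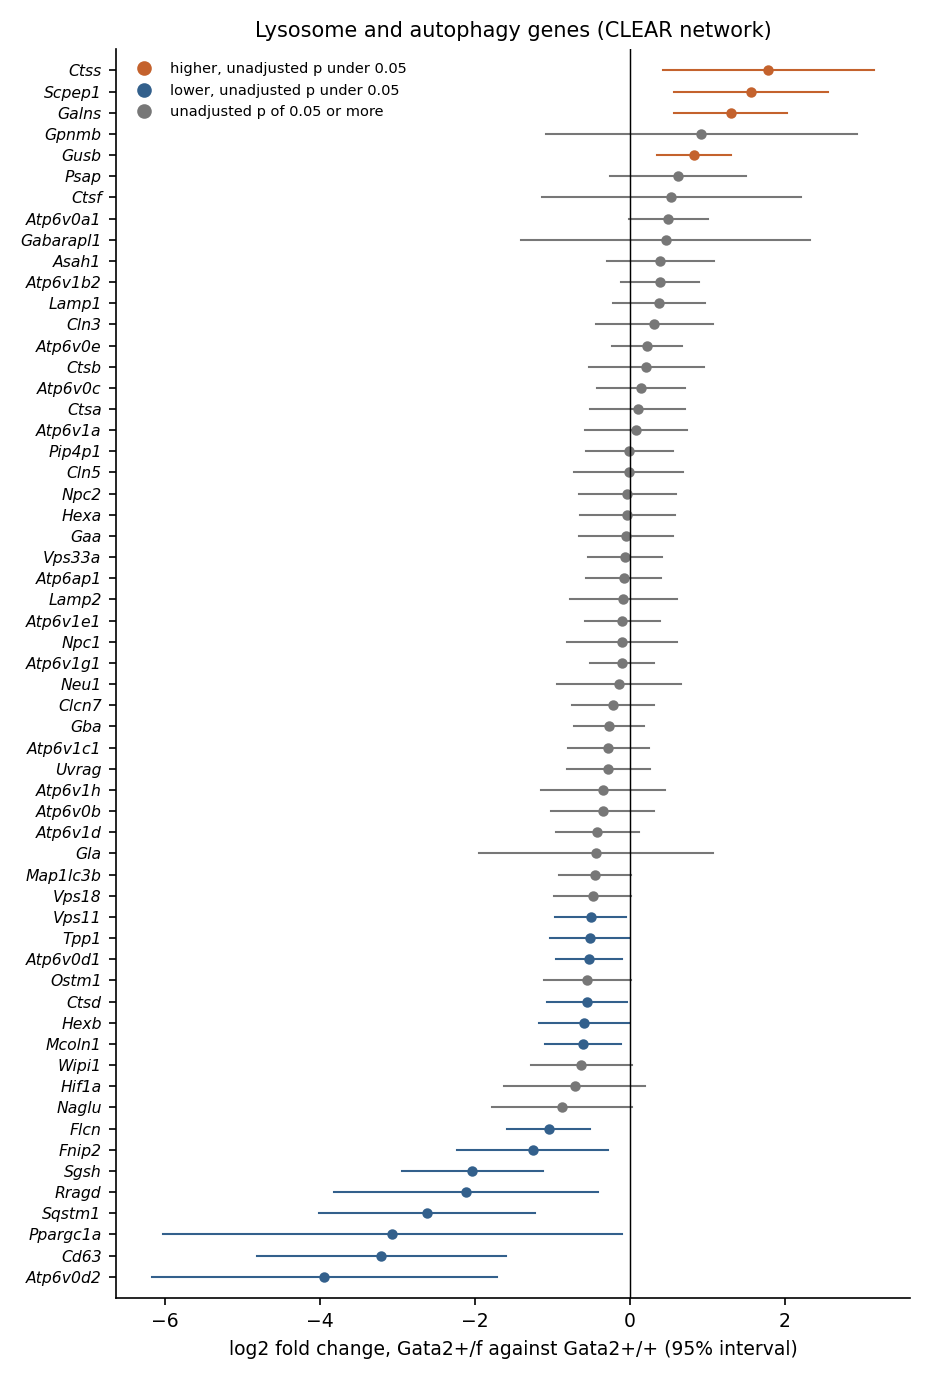
Log2 fold change, Gata2+/f against Gata2+/+, with its 95% interval for 58 of the 59 lysosome and autophagy genes, coloured by direction where the unadjusted p was under 0.05. The genes spread from −3.94 (Atp6v0d2) to 1.79 (Ctss), with 14 lower, 4 higher and the remaining 40 in grey.

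CLEAR genes are defined by an E-box near their start, so its presence is no finding here, but the letters show what the family reads. Of the 45 list genes with a RefSeq window, 16 held CACGTG in the 250 bases before a start, which is 35.6% against 6.86% of all genes. The longer palindrome TCACGTGA, which contains CACGTG, was in 8 (17.8% against 0.907%). Of the 16 genes with CACGTG, 3 were lower and 0 higher at an unadjusted p under 0.05, against 11.5% and 11.1% of all genes. Their median log2 fold change was −0.14, against 0.02 over all genes tested. Of the 29 without CACGTG, 8 were lower and 3 higher at that level, beside the same shares of all genes, with a median of −0.14. The medians were equal to 2 decimals. Examples of the palindrome, in capitals, follow for Mcoln1 (chr8:3500457-3500496, forward strand), Ctsd (chr7:142387903-142387942, reverse strand) and Vps33a (chr5:123573021-123573060, reverse strand).
Mcoln1: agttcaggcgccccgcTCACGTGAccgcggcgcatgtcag
Ctsd: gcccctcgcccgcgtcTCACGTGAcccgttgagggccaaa
Vps33a: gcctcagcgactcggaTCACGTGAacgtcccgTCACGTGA
Ctsd, the aspartic protease of lysosomes, also chosen after its values were seen, had 592, 543 and 700 CPM in Gata2+/+, against 402, 450 and 402 CPM for Gata2+/f (−0.55, SE 0.22, edgeR adjusted p = 0.206). Vps33a, a tethering factor whose window held the palindrome in duplicate, was named after its values were seen and had 49.6, 56.6 and 62.8 CPM against 59.6, 51.8 and 50.3 CPM (−0.06, SE 0.20). The groups overlapped for Vps33a and did not for Ctsd, and neither gene passed an adjusted threshold.

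Osteoclast genes, the other set known from Mitf and Tfe3, lay on either side as well. Of 17 genes 13 were tested, with 4 lower and 2 higher at an unadjusted p under 0.05, against 11.5% and 11.1% of all genes. The median log2 fold change was −0.26, against 0.02 over all genes. Acp5, the tartrate-resistant phosphatase, had 10.1, 16.4 and 17.6 CPM in Gata2+/+, against 74.2, 87.1 and 82.1 CPM for Gata2+/f (log2 fold change 2.47, SE 0.28, edgeR adjusted p = 0.0747). It lay in the opposite direction to Mitf. Mmp9, a protease also of neutrophils, had 2.04, 7.59 and 1.81 CPM against 12.5, 14.8 and 63.5 CPM (2.99, SE 0.85). Its log2 fold change was 1.86 without Gata2+/f replicate 11 and 3.97 without Gata2+/+ replicate 5. Src, a tyrosine kinase that osteoclasts need, had 3.26, 4.51 and 6.17 CPM against 0.340, 0.334 and 0.777 CPM (−3.26, SE 0.57, edgeR adjusted p = 0.0955). Nfatc1, the master factor of osteoclasts, had 110, 107 and 98.0 CPM against 29.3, 22.1 and 63.7 CPM (−1.45, SE 0.39, edgeR adjusted p = 0.126). Traf6, a signalling adaptor, had a log2 fold change of −0.64 (SE 0.26) with overlapping groups, and Atp6v0d2 above is the remaining lower gene. Of the 4 genes not tested, Dcstamp had 0 counts, and Oscar, Ocstamp and Calcr had too few. Other members, named after their values were seen, were abundant, such as the carbonic anhydrase Car2, which ranged from 507 to 1874 CPM, while the protease Ctsk reached at most 0.478 CPM.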

How the data were processed

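Per the submitters' processing notes, the tools were CASAVA 1.8.2, STAR 2.5.4a and RSEM 1.3.0 with build GRCm38. The authors deposited RSEM expected counts per Ensembl gene, not normalized, of which 11.7% were not whole. The annotation release and strand setting are not given in the sources used here. Per the labels' protocols, libraries were poly-A selected and stranded.

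Expected counts were rounded. Genes were kept by filterByExpr (minimum count 10), scaled by TMM (factors 0.821 to 1.11) and tested with edgeR 4.0.16 in R 4.3.3 by the quasi-likelihood test, two-sided, without covariates, with Benjamini-Hochberg adjustment over 15432 genes. Standard errors follow from the log2 fold change and its F statistic, and means ± SD are over 3 libraries. DESeq2 1.42.0, limma 3.58.1 (voom) and other scalings and filters were alternatives. GENCODE M21 matched 97.5% of gene IDs and gave lengths and positions, and RefSeq (GRCm38.p6) gave promoter windows. The tests were tested on simulated data.

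The family members and gene lists were chosen with earlier results of these data known. Named are the 4 family genes, Gata2, Kit, all mast cell genes linked to Mitf, the 6 members with the smallest p in each other pathway list, and the 4 genes most like each member, with a prior count of 2 and a mean log2 CPM of 3 or more. Other names are given as chosen after their values were seen, as are markers at 0. A member of the mast cell list and one of the CLEAR list enter the counts and are not reported by name here.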

Additional observations from a re-analysis of the deposited data

How the results depend on the processing

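No paired analysis was possible because the 2 groups share no replicate numbers in the labels. Mitf, Tfe3, Tfeb and Tfec kept their direction in all settings tried. Their side of the threshold changed with DESeq2 alone, for Mitf (log2 fold change −2.40, adjusted p = 0.0263) and Tfec (1.81, adjusted p = 0.0410). Over the other tests, scalings and filters adjusted p reached 0.176 for Mitf and 0.182 for Tfec. With 1 library left out, the log2 fold change went from −3.14 to −1.85 for Mitf, 0.29 to 0.63 for Tfe3, 0.13 to 0.45 for Tfeb and 1.51 to 2.57 for Tfec.

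Of all genes 0 were called by edgeR's quasi-likelihood test, 444 at an adjusted p under 0.1, 1809 by DESeq2, 9 by limma voom, 32 by the newer bias-adjusted edgeR test, 19 with no filter beyond 1 count, and 0 to 66 with 1 library left out, the 66 without Gata2+/f replicate 11. Upper quartile scaling moved the median of all genes from 0.02 to 0.11 and the share higher among genes at an unadjusted p under 0.05 from 49.3% to 58.3%. The nutrient-sensing list had 2 to 8 lower and 1 to 3 higher genes with 1 library left out and 2 higher by the unadjusted p of DESeq2, the CLEAR list 7 to 15 lower, and the mast cell list 1 higher gene with no filter beyond 1 count. The cause of the moves in these list counts was not tested. The Mitf share in Gata2+/+ was 60.2% with the longest transcript and 69.0% with merged exons, where the CPM are the same and only the lengths differ. With 3 libraries per group, the spread between libraries limits these comparisons.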
